A study of Astyanax mexicanus with 6 samples.

Results

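Keratins are the proteins of the intermediate filaments of epithelial cells. A filament is built from pairs of a type I and a type II keratin, so each cell needs a gene of both types. In simple epithelia, including the hepatocytes and bile duct cells of the mammalian liver, the pair is keratin 8 (type II) with keratin 18 (type I), whereas the mammalian keratins 5, 15 and 17 belong to stratified epithelium and its appendages.

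A list of 8 keratin symbols was followed, krt4, krt8, krt18a.1, krt18b, krt5, krt15, krt17 and krt94, and its members were found by symbol among the 27420 genes of the expression table. Of these symbols 6 were matched to 8 rows, because krt8 and krt15 are each given to 2 Ensembl genes. krt17 and krt94 were matched to no row and were not analysed here. The list was drawn up with expression values of these libraries known, so the levels of its members in the lines are given as a description and were not tested.

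RNA-seq was done on SFL, a line grown from the liver of a surface morph (Surface) Astyanax mexicanus of 5 months, and on CFL, a line from the liver of a Pachón cavefish of the same age. Each line has 3 libraries. For SFL, passage 45 was sequenced as replicate 1 and passage 46 as the other replicates, and for CFL these were passages 50 and 51. At the sampled passages both lines grew in the same medium with serum, insulin and epidermal growth factor. Earlier passages had also received an extract of embryos of the line's own morph, and the Pachón fish were starved before their livers were taken while the surface fish were not. Each line was described as a clone obtained by serial dilution, CFL with more chromosomes than the normal set. The libraries of a line are therefore cultures and not fish, p-values measure only the spread between such cultures, and line, fish, feeding, early medium, clone and passage cannot be told apart. The methods text speaks of RNA from liver and muscle tissue, but the library names carry passages and were read as those of the cell lines.

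Levels are in TPM, transcript abundance corrected for length and scaled to 1000000 per library, so levels of different genes can be set side by side. TPM holds no read counts, so the depth behind a value is unknown. The number of genes with 1 TPM or more lay between 13254 and 13721. The summed TPM of 17 hepatocyte marker genes was low, at 1.77 to 2.66 in CFL and 27.6 to 62.9 in SFL, and ttr was listed at 0 in every library. Of these genes 1 had at least 1 TPM in all CFL libraries and 4 in all SFL libraries. By the rule given below, 5 of the 10 tested were called higher in SFL and 1 higher in CFL, beside 11.7% and 8.88% of all tested genes. The paper reported alanine aminotransferase activity and transcripts of its genes in both lines. It also listed genes expressed in liver tissue and both lines but not in muscle.

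Both lines expressed krt18a.1, krt18b and 1 of the genes named krt8, and each of these stood several-fold higher in SFL. krt8 (ENSAMXG00000036187), the type II keratin of simple epithelium, had levels of 680, 686 and 546 TPM in CFL replicates 1, 2 and 3. In SFL replicates 1, 2 and 3 krt8 was at 3685, 3105 and 4246 TPM, so the lines did not overlap. The means were 637 ± 79.1 TPM in CFL and 3679 ± 570 TPM in SFL (SD, n = 3 each), a ratio of 5.77. krt8 ranked between 204 and 251 among all genes in the CFL libraries and between 35 and 61 in the SFL libraries.

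Its type I partner is present as genes of both an a and a b form. krt18a.1 (ENSAMXG00000033930) gave 349, 408 and 295 TPM in the CFL libraries against 1641, 1383 and 1719 TPM in those of SFL. The SFL libraries were all above the CFL libraries, and the mean went from 351 ± 56.6 TPM in CFL to 1581 ± 176 TPM in SFL (SD, n = 3 each), a ratio of 4.51. krt18b (ENSAMXG00000034722) read 470, 334 and 307 TPM across CFL, whereas SFL gave 1436, 1760 and 2205 TPM, in the order of the replicates. Its lines did not overlap either, with means of 370 ± 87.3 and 1800 ± 386 TPM (SD, n = 3 each) and a ratio of 4.86. The a and b forms were at like levels in both lines, since the ratio of krt18a.1 to krt18b lay between 0.741 and 1.22 in CFL and between 0.779 and 1.14 in SFL.

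krt4 is a type II keratin that in zebrafish is best known from the outer layer of the skin. krt4 (ENSAMXG00000017238) had 79.3, 47.0 and 28.0 TPM for the CFL replicates, and 969, 3896 and 2729 TPM for SFL. Even the lowest SFL library stood far above the highest CFL library. The means of 51.4 ± 25.9 TPM in CFL and 2531 ± 1474 TPM in SFL (SD, n = 3 each) gave a ratio of 49.2. In SFL replicate 2 krt4 exceeded krt8, whereas in SFL replicate 1 it was at 0.263 of the level of krt8.

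On the log2(TPM + 1) scale the SFL over CFL difference was 5.50 (SE 0.58) for krt4, 2.52 (SE 0.19) for krt8, 2.18 (SE 0.19) for krt18a.1 and 2.28 (SE 0.24) for krt18b. In the comparison of all genes, fitted with limma, 11.7% of the 18489 tested genes were called higher in SFL (Benjamini-Hochberg adjusted p under 0.05 with a log2 difference of at least 1 in size) and 8.88% were called higher in CFL. All 4 keratin rows that passed the filter of 0.2 TPM in at least 1 library were called higher in SFL, and all 4 had every SFL library above every CFL library, which held for 29.8% of the tested genes. Nothing is read from these counts, since the list was chosen on the same contrast. In bulk RNA a difference in the number of cells that express a gene and in the RNA per cell cannot be told apart.

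**Figure D1:**
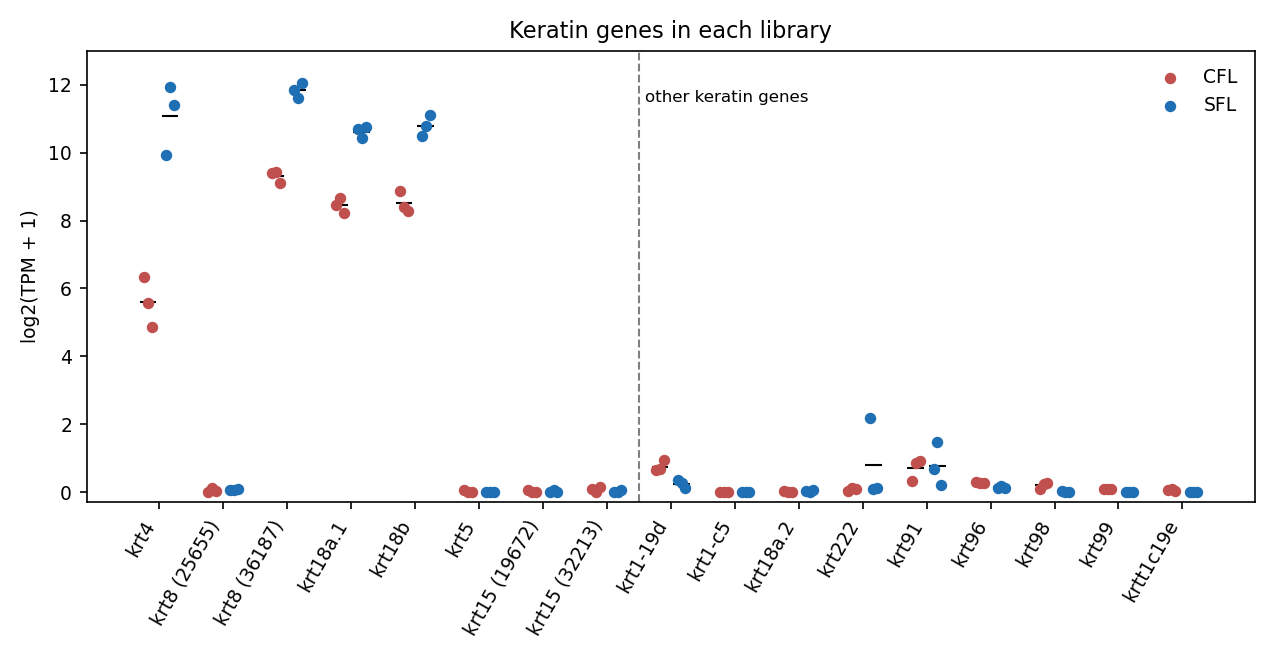
log2(TPM + 1) of all 17 keratin rows in each of the 3 CFL and 3 SFL libraries, where a point is a library and a line the mean; digits in brackets end the Ensembl identifier where a symbol is used more than once. krt4, krt8, krt18a.1 and krt18b stand apart from all other rows in both lines and are higher in SFL, while every other row stays at or below 3.59 TPM.

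The other 4 rows of the list were near 0. krt5 (ENSAMXG00000040054), both krt15 genes (ENSAMXG00000019672 and ENSAMXG00000032213) and the further krt8 gene (ENSAMXG00000025655) reached at most 0.12 TPM in any library and did not pass the filter. krt5 and krt15 carry the names of mammalian keratins of stratified epithelium. Of the expressed rows krt8, krt18a.1 and krt18b are keratins of simple epithelium by name, and krt4 is not. How reads shared by the krt8 genes were divided between them is not known.

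In CFL the order of levels was krt8 first, krt18a.1 and krt18b next with overlapping ranges, and krt4 last. The lowest krt8 library of CFL (546 TPM) was above the highest krt18b library (470 TPM), and the lowest krt18a.1 library (295 TPM) was above the highest krt4 library (79.3 TPM). In SFL krt8 stayed above krt18a.1 and krt18b in every library, but krt4, with its range from 969 to 3896 TPM, overlapped all of them. krt4 was also the most variable. Its highest library was 4.02 times its lowest in SFL and 2.83 times in CFL, against 1.24 to 1.54 times for krt8, krt18a.1 and krt18b within a line.

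The balance of the keratin types differed between the lines in these libraries. The summed level of the type I members was 819, 742 and 603 TPM in CFL replicates 1, 2 and 3, beside 759, 733 and 574 TPM for type II. This gave a type I to type II ratio of 1.08, 1.01 and 1.05, close to equal amounts. In SFL replicates 1, 2 and 3 the type I sum was 3077, 3143 and 3923 TPM and the type II sum 4654, 7001 and 6975 TPM, a ratio of 0.661, 0.449 and 0.563. The mean ratio was 1.05 ± 0.0335 in CFL and 0.558 ± 0.106 in SFL (SD, n = 3 each), described without a test because the members enter it.

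Much of that difference lay in krt4. It made up 4.88% to 10.4% of the type II sum in CFL and 20.8%, 55.6% and 39.1% in SFL replicates 1, 2 and 3. Without krt4, the ratio of krt8 to the sum of krt18a.1 and krt18b was 0.830 to 0.925 in CFL and 0.988 to 1.20 in SFL. This ratio is type II over type I, the inverse of the ratio given above. The lines thus still did not overlap, with relatively more type II in SFL. Types were assigned from the gene symbols, and the 8654 rows of the table with no symbol may hold further keratins that were not counted.

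**Figure D2:**
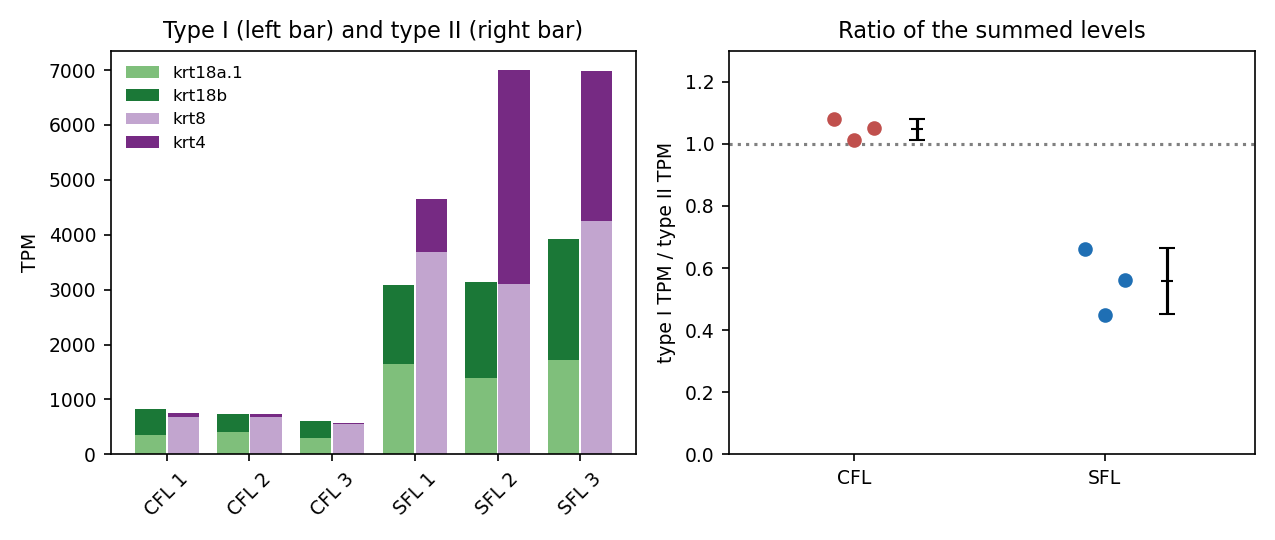
Left, TPM of krt18a.1 and krt18b (type I, left bar) and of krt8 and krt4 (type II, right bar) stacked for each library; right, the ratio of the type I to the type II sum, with each library as a point and the mean with SD beside it. The bars of a CFL library are of near-equal height (ratios 1.01 to 1.08), and in each SFL library the type II bar is the taller (ratios 0.449 to 0.661).

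All members together summed to 1578, 1476 and 1177 TPM in CFL replicates 1, 2 and 3 and to 7731, 10145 and 10898 TPM in SFL replicates 1, 2 and 3. They thus took 0.118% to 0.158% of all TPM in CFL and 0.773% to 1.09% in SFL. The mean sum was 6.80 times higher in SFL. Of the TPM of all keratin rows with a symbol, the members made up at least 99.8% in every library. This share is a description, since the list was drawn up with expression values known.

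Because the list was drawn up with expression values known, nothing is read from the levels of keratins left outside it. The keratin genes outside the list were almost silent. Of 9 such rows 5 passed the filter, and limma called 0 in either direction by the same rule, with 1 of the 5 at an unadjusted p under 0.05. That gene was krt1-19d (ENSAMXG00000007909), which gave 0.56, 0.60 and 0.93 TPM in the CFL libraries against 0.28, 0.20 and 0.10 TPM in those of SFL. Its difference of -0.50 (SE 0.13, limma adjusted p = 0.0221) ran opposite to the members and stayed under the fold threshold. With a pseudocount of 0.1 in place of 1 its difference was -1.46 (limma adjusted p = 0.0208), which is past both thresholds.

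krt91 (ENSAMXG00000001164) read 0.27, 0.82 and 0.88 TPM across CFL, whereas SFL gave 0.59, 1.78 and 0.16 TPM, with overlapping lines. krt222 (ENSAMXG00000032855), a short keratin-like gene, was at 3.59 TPM in SFL replicate 1 and at most 0.10 TPM in every other library. krt96 and krt98 did not exceed 0.24 TPM. Of the rows that did not pass the filter, krt99 and krtt1c19e were listed at 0 in all SFL libraries and at no more than 0.06 TPM in CFL, and krt18a.2 and krt1-c5 were at most 0.05 TPM in any library.

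Gene order was taken from the RefSeq annotation of the AstMex3_surface assembly, used only for which genes lie side by side because the sources do not name the assembly used for the TPM. There krt5, krt8, krt18a.1 and krt18a.2 follow each other without another gene between them, which puts the genes of a type II and type I pair next to each other. Expression was not shared along this row of genes. krt18a.1 reached 1719 TPM, while krt5 at one end and krt18a.2 at the other did not exceed 0.05 TPM. Which of the krt8 rows of the TPM table is the neighbour of krt18a.1 is not given by the tables.

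Next to krt18a.2 lies eif4ba, a translation initiation factor gene, with levels of 8.55, 6.84 and 6.26 TPM in CFL against 18.2, 16.9 and 13.5 TPM in SFL. It was called higher in SFL (log2 difference 1.06, SE 0.20, limma adjusted p = 0.00785). tns2a, the gene after it, had 23.3, 24.7 and 25.9 TPM for the CFL replicates, and 27.0, 18.3 and 27.7 TPM for SFL, with overlapping lines. Further along, eif4e3 was also called higher in SFL (log2 difference 1.07, SE 0.28, limma adjusted p = 0.0272). krt18b lies elsewhere, with no other keratin symbol among its neighbours, some of which carry only locus numbers. The gene before it, si:dkey-195m11.8, was called higher in SFL (log2 difference 1.89, SE 0.50, limma adjusted p = 0.0278). The other tested genes looked up around krt8 and krt18b, keratins aside, were not called. Of these, rybpa (log2 difference 0.83, limma adjusted p = 0.0173), atf1 (0.66, 0.0386) and os9 (0.66, 0.0377) missed only the fold threshold. Over all tested genes 11.7% were called higher in SFL and 8.88% higher in CFL. krt94, krt98, krt15 and krt99 stand together in a further group of type I genes, and of those matched to rows none exceeded 0.21 TPM. These neighbours were looked up after the values of the keratins had been seen.

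**Figure D3:**
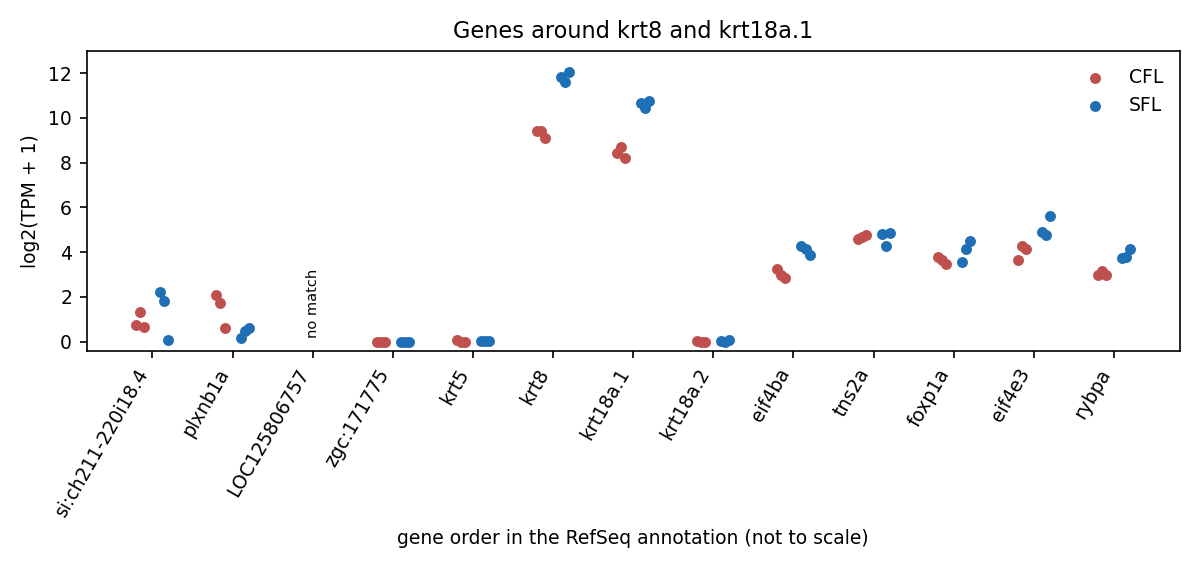
log2(TPM + 1) in each library for the genes around krt8 and krt18a.1, in RefSeq order and not to scale, with the higher of the krt8 rows plotted. The plotted krt8 row and krt18a.1 stand out in both lines, and krt5 and krt18a.2 lie at 0 to 0.05 TPM. Which krt8 row belongs at this position is not known, and the other krt8 row, not plotted, reached at most 0.08 TPM.

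Likeness to a member was measured as the root mean square difference between profiles of log2(TPM + 1) over the 6 libraries, each centred on its own mean. For krt8 the nearest genes with a symbol were TSKU (0.12), asb14a (0.13) and TEX2 (0.18). krt18a.1 was at 0.19 and krt18b at 0.25 from krt8, but krt4 at 1.66. For krt18a.1 the nearest were cacna1ab (0.13), selenon (0.13) and slc22a23 (0.14). Genes at low levels dominate these lists, with TSKU and asb14a at most at 0.02 TPM in CFL, and the measure rests mainly on the size of the difference between the lines.

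Keratin filaments are tied to the cell surface by desmosomes and hemidesmosomes. Of 19 tested genes of these anchors 3 were called higher in SFL and 2 higher in CFL, beside the 11.7% and 8.88% of all tested genes given above. Their median difference was -0.04, against 0.07 over all tested genes. pkp3b (plakophilin 3), a plaque protein of the desmosome, gave 1.23, 1.04 and 0.36 TPM in the CFL libraries against 10.8, 25.5 and 46.4 TPM in those of SFL. Its lines were far apart (log2 difference 3.74, SE 0.50, limma adjusted p = 0.00211), and the difference was 4.41 with the later passages alone.

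jupa (plakoglobin), which links desmosomal cadherins to the plaque, averaged 94.5 ± 8.06 TPM in CFL against 270 ± 80.4 TPM in SFL (SD, n = 3 each; limma adjusted p = 0.00618). dspa (desmoplakin), the protein that binds the keratin filament itself, read 40.4, 31.4 and 24.0 TPM across CFL, whereas SFL gave 50.3, 88.3 and 116 TPM. The call of dspa (log2 difference 1.33, SE 0.34, limma adjusted p = 0.0248) held in 10 of 15 alternative settings and was lost without CFL replicate 2, CFL replicate 3 or SFL replicate 2. SFL replicate 1 was the lowest SFL library for pkp3b, jupa and dspa, as it was for krt4 and krt18b but not for krt8 or krt18a.1. Among the desmosome genes not called, dsc2l and jupb had lower means in SFL, while perp, pkp2, pkp3a and PKP4 (ENSAMXG00000010785) had higher means in SFL. The lines of pkp3a and PKP4 did not overlap, and both genes missed only the fold threshold. pkp3a had means of 0.05 TPM in CFL and 0.777 TPM in SFL (limma adjusted p = 0.0311). PKP4 had means of 5.99 TPM in CFL and 10.6 TPM in SFL (limma adjusted p = 0.0317).

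The hemidesmosome genes were higher in CFL or were not called. itga6b, an alpha 6 integrin, had 9.01, 7.31 and 2.93 TPM for the CFL replicates, and 0.02, 0.16 and 0.06 TPM for SFL (log2 difference -2.68, SE 0.35, limma adjusted p = 0.00182). The more abundant alpha 6 gene, itga6a, averaged 111 ± 35.8 TPM in CFL against 59.2 ± 38.7 TPM in SFL (SD, n = 3 each). Its lines overlapped and it was not called (limma adjusted p = 0.169). cd151l, a tetraspanin related to the CD151 that binds laminin-receptor integrins, averaged 36.5 ± 1.91 TPM in CFL against 14.6 ± 0.768 TPM in SFL (SD, n = 3 each; limma adjusted p = 0.0013). cd151 itself averaged 73.2 ± 14.0 TPM in CFL against 63.9 ± 26.1 TPM in SFL and was not called (limma adjusted p = 0.551). itgb4, the beta 4 integrin of the hemidesmosome, averaged 1.73 ± 0.692 TPM in CFL against 0.527 ± 0.469 TPM in SFL and was not called (limma adjusted p = 0.0607). The plectin genes, whose product crosslinks filaments to these sites, had overlapping lines at 35.5 ± 7.51 and 40.5 ± 10.9 TPM for pleca and at 156 ± 21.2 and 119 ± 39.0 TPM for plecb (CFL and SFL, SD, n = 3 each).

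Among 15 tested intermediate filament genes that are not keratins, 1 was called higher in SFL and 2 higher in CFL, beside 11.7% and 8.88% of all tested genes, with a median difference of 0.10. nes (nestin) gave 3.81, 14.4 and 13.1 TPM in the CFL libraries against 185, 56.6 and 48.4 TPM in those of SFL (log2 difference 3.00, SE 0.64, limma adjusted p = 0.0124). SFL replicate 1 held the highest level, and the difference was 2.40 without it and 1.86 with the later passages alone. gfap, the filament gene of glia and stellate cells, gave 5.97, 2.84 and 2.30 TPM in CFL but stayed at or under 0.13 TPM in SFL (log2 difference -2.04, SE 0.28, limma adjusted p = 0.00232). iffo2b, a gene of the wider family, averaged 11.8 ± 3.63 TPM in CFL against 2.62 ± 1.5 TPM in SFL (SD, n = 3 each; limma adjusted p = 0.011), and its difference went from -1.88 to -1.29 with the later passages alone.

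The row named vim, for the mesenchymal filament vimentin, did not exceed 0.03 TPM in any library. The nuclear lamin gene lmna averaged 352 ± 38.4 TPM in CFL against 232 ± 109 TPM in SFL (SD, n = 3 each) and was not called (limma adjusted p = 0.169). Apart from the lamins, none of the other filament genes examined reached the level of krt8, krt18a.1 or krt18b in any library.

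Of 15 tested genes for epithelial regulators and their repressors, 3 were called higher in SFL and 2 higher in CFL, beside 11.7% and 8.88% of all tested genes, with a median difference of -0.01. elf3, an ETS factor of epithelial cells, read 0.19, 0.49 and 0.85 TPM across CFL, whereas SFL gave 17.3, 14.8 and 137 TPM (log2 difference 4.52, SE 0.80, limma adjusted p = 0.00633). Without SFL replicate 3, its highest library, the difference of elf3 was 3.52. The AP-2 factors exchanged places between the lines. tfap2c had 0.27, 0.20 and 0.12 TPM for the CFL replicates, and 5.69, 8.24 and 11.3 TPM for SFL (log2 difference 2.93, SE 0.25, limma adjusted p = 0.000317). tfap2a gave 12.6, 14.0 and 11.9 TPM in CFL but stayed at or under 0.02 TPM in SFL (log2 difference -3.77, SE 0.16, limma adjusted p = 2.82e-05).

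The ZEB factors, which repress epithelial genes in mammals, also differed by copy. zeb2b gave 0.76, 0.77 and 0.08 TPM in the CFL libraries against 23.8, 18.1 and 30.5 TPM in those of SFL (log2 difference 4.04, SE 0.29, limma adjusted p = 0.000166). zeb1b averaged 1.93 ± 0.252 TPM in CFL against 0.133 ± 0.117 TPM in SFL (SD, n = 3 each; limma adjusted p = 0.000605), and zeb1a and zeb2a were not called. zeb2a averaged 21.6 ± 4.59 TPM in CFL against 31.1 ± 13.9 TPM in SFL, so a zeb2 gene was expressed in both lines. zeb1a averaged 3.06 ± 0.587 TPM in CFL against 2.71 ± 0.651 TPM in SFL (SD, n = 3 each). tp63, the regulator of stratified epithelium, did not exceed 0.12 TPM, and esrp1, an epithelial splicing factor, was listed at 0 in every library.

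Of 27 tested genes for proteins that bind, modify or cleave keratins, 2 were called higher in SFL and 1 higher in CFL, beside 11.7% and 8.88% of all tested genes, with a median difference of 0.29. sqstm1 (p62), which in mammalian hepatocytes gathers with keratins 8 and 18 in inclusion bodies, read 10261, 19524 and 13914 TPM across CFL, whereas SFL gave 1590, 1931 and 1587 TPM. This difference of -3.05 (SE 0.27, limma adjusted p = 0.000378) was opposite in direction to that of the keratins. ywhag1, a 14-3-3 protein of a family that binds phosphorylated keratin 18, had 17.9, 23.1 and 22.8 TPM for the CFL replicates, and 150, 147 and 64.2 TPM for SFL (log2 difference 2.36, SE 0.35, limma adjusted p = 0.00303). No other tested 14-3-3 gene was called. ywhag2 averaged 64.4 ± 11.6 TPM in CFL against 63.8 ± 27.0 TPM in SFL (SD, n = 3 each; limma adjusted p = 0.866). casp3a (ENSAMXG00000030411), a copy of caspase 3, a protease family that cleaves keratin 18, averaged 1.06 ± 0.125 TPM in CFL against 4.39 ± 2.1 TPM in SFL (SD, n = 3 each; limma adjusted p = 0.0122). Without CFL replicate 1 or CFL replicate 2 casp3a was not called, and another row with this symbol was not called either. The more abundant caspase 3 gene, casp3b, averaged 31.6 ± 0.714 TPM in CFL against 32.8 ± 8.14 TPM in SFL (SD, n = 3 each). Its lines overlapped and it was not called (limma adjusted p = 0.933), so the call of casp3a does not extend to caspase 3 as a whole.

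**Figure D4:**
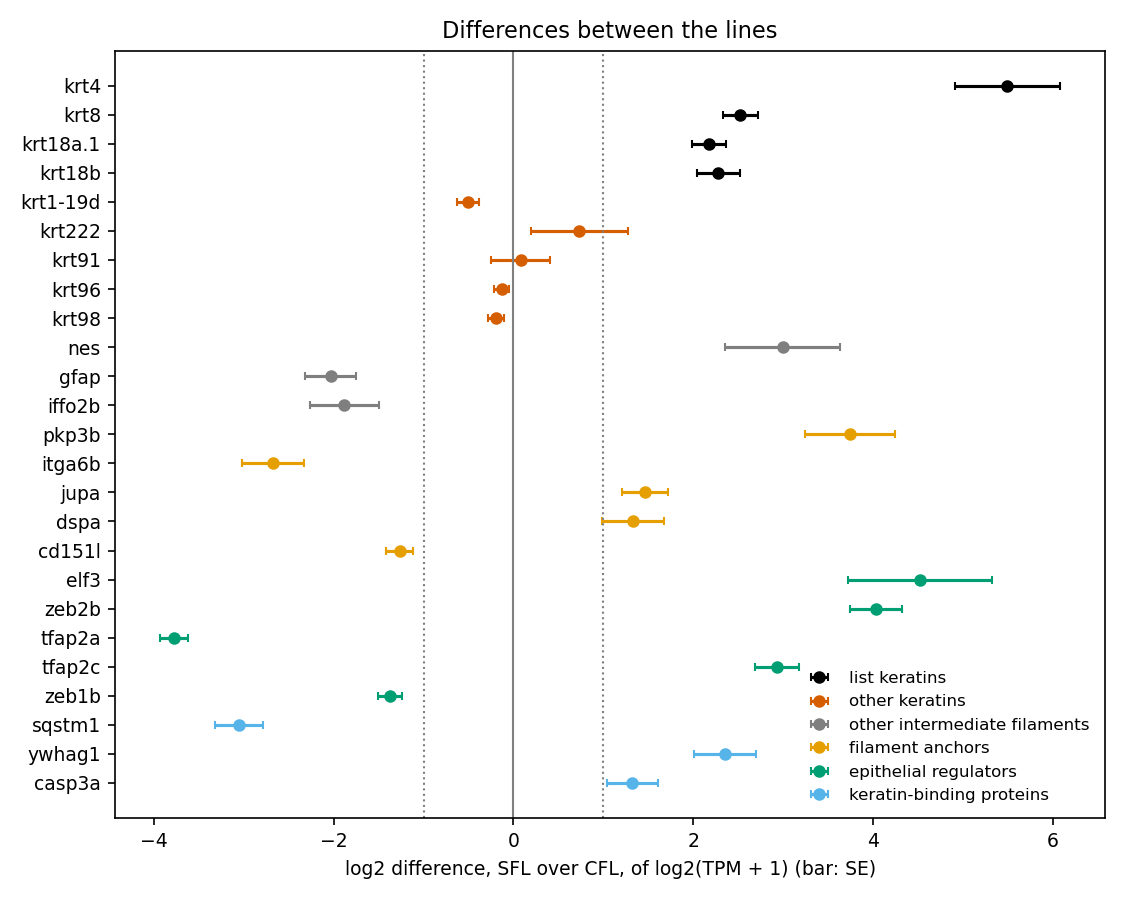
log2 difference SFL over CFL of log2(TPM + 1) with its SE from limma, for the 4 expressed keratins of the list, the other tested keratins and the called genes of the accompanying gene groups; dotted lines mark differences of -1 and 1. The 4 keratins lie between 2.18 and 5.50, the other keratins between -0.50 and 0.73, and the accompanying genes on both sides of 0.

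Marker lists of other cell types held genes that differed in both directions, and their part in the keratin difference was not tested. Of 13 bile duct marker genes 7 had at least 1 TPM in all CFL libraries and 6 in all SFL libraries. Of the 8 tested, 4 were called higher in SFL and 3 higher in CFL, beside 11.7% and 8.88% of all tested genes. Their summed level was 325 to 398 TPM in CFL and 835 to 1233 TPM in SFL, and the highest of these genes in every SFL library was tm4sf4, which averaged 7.21 ± 1.88 TPM in CFL against 593 ± 109 TPM in SFL (SD, n = 3 each). The bile duct genes called higher in CFL were sox9a (39.1 ± 10.9 TPM in CFL against 0.730 ± 0.0917 TPM in SFL), hnf1bb (193 ± 25.4 against 7.26 ± 5.01 TPM) and spp1 (19.9 ± 12.2 against 0.927 ± 0.487 TPM; SD, n = 3 each). epcam did not exceed 0.02 TPM and sox9b 0.03 TPM.

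The 17 fibroblast and stellate cell markers summed to 3794 to 5351 TPM in CFL and 2582 to 6871 TPM in SFL, with overlap, and postnb was listed at 0. Of the 13 tested, 1 was called higher in SFL and 4 higher in CFL, beside 11.7% and 8.88% of all tested genes. Their median difference was -1.31. The gene called higher in SFL was col1a1a (71.9 ± 29.6 TPM in CFL against 280 ± 97.7 TPM in SFL, SD, n = 3 each). tagln had every SFL library above every CFL library (915 ± 136 TPM in CFL against 2630 ± 1567 TPM in SFL) but was not called (limma adjusted p = 0.0659). Those higher in CFL were fn1a (2366 ± 316 TPM in CFL against 699 ± 368 TPM in SFL), col5a2a (183 ± 36.0 against 34.2 ± 19.1 TPM), pdgfra (21.5 ± 2.48 against 1.03 ± 0.538 TPM; SD, n = 3 each) and pdgfrb (8.95 to 13.3 TPM in CFL, 0.26 to 1.41 TPM in SFL).

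The 12 skin and stratified epithelium rows summed to 1590 to 2277 TPM in CFL and 2302 to 3129 TPM in SFL, nearly all of it from icn and a gene named anxa1a. Of the 9 tested, 2 were called higher in SFL and 0 higher in CFL, beside 11.7% and 8.88% of all tested genes. Both called rows carry the symbol anxa1a, as does a further tested row that was not called. icn averaged 1122 ± 271 TPM in CFL against 775 ± 179 TPM in SFL (SD, n = 3 each) and was not called (limma adjusted p = 0.163). An unadjusted limma p under 0.05 in either direction was found for 4 of the 9 tested. Of 7 leukocyte markers tested only hcls1 was called, higher in SFL (1.51 ± 0.312 TPM in CFL against 22.4 ± 3.66 TPM in SFL, SD, n = 3 each), and the whole list summed to 3.04 to 4.05 TPM in CFL and 19.7 to 27.3 TPM in SFL. Endothelial markers summed to 60.5 to 80.7 TPM in CFL and 89.7 to 249 TPM in SFL, where kdr reached 154 TPM in SFL replicate 3, and pecam1 was listed at 0. In every library except SFL replicate 3 most of this sum came from kdrl. It averaged 62.1 ± 9.67 TPM in CFL against 81.2 ± 6.83 TPM in SFL (SD, n = 3 each). cdh5 did not exceed 0.02 TPM. Of the 5 endothelial markers tested limma called 0, with 1 at an unadjusted p under 0.05. The leukocyte and endothelial counts stand beside the same shares of all tested genes, 11.7% and 8.88%.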

How the data were processed

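Stranded mRNA libraries were sequenced as 75 bp reads. The authors aligned them with STAR 2.7.3a (version from the submitters' processing notes) to a UCSC genome, whose assembly is not given in the sources used here, with Ensembl release 102 models. Abundance came from RSEM. The deposited table gives TPM for every gene and library, and no scaling between libraries is stated. The study's own comparison was on read counts. These are not used here, so the lines were compared on a log scale, keeping the study's thresholds.

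log2(TPM + 1) was computed for genes that reached 0.2 TPM in any library and compared between lines with limma 3.58.1 (lmFit, eBayes with trend) in R 4.3.3, without a block, with Benjamini-Hochberg adjustment over all 18489 genes. Differences on this scale understate changes of low genes. Tables were made in Python 3.11.15 with pandas 2.3.3. The fit was tested on simulated data. For a lone gene, 3 libraries against 3 cannot give an exact permutation p below 0.1.

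The members and gene lists were chosen with earlier results of these data known. Genes named by a fixed rule are the members, other keratins and main genes of a list by textbook role. The rule also took up to 6 called genes per list whose lines did not overlap, ordered by difference. Neighbours, genes with near profiles, cell type markers and uncalled genes set beside called ones were named outside this rule. Alternatives were other pseudocounts (0.1 and 0.5), no filter, a stricter filter (1 TPM or more in 3 libraries), quantile normalization, scaling by median ratios, a variance prior without trend, a replicate block, later passages alone and each library left out.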

Additional observations from a re-analysis of the deposited data

How the results depend on the processing

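The 4 expressed keratins kept their direction in all 15 alternative settings. No alternative that leaves out libraries or changes the pseudocount or filter could have reversed it, since every SFL library stood above every CFL library. With the later passages alone the difference was 6.45 for krt4 and 2.62 for krt18b, and with each library left out it ranged from 5.08 to 6.08 for krt4 and from 2.12 to 2.46 for krt18b. With a pseudocount of 0.1, 2492 genes were higher in CFL over all genes, and 1 of the other keratins (krt1-19d). With no fold threshold the calls were 3610 towards SFL and 2808 towards CFL. Without the filter, 0 other intermediate filament genes were higher in SFL (limma, nes adjusted p = 0.0523). Leaving out each library gave 1 to 2 other intermediate filament genes higher in SFL (2 without SFL replicate 2), 2 to 4 anchor genes higher in CFL (4 without SFL replicate 3) and 1 to 3 keratin-binding genes higher in SFL (1 without CFL replicate 1 or CFL replicate 2). Deviations of same-numbered libraries from their line means had correlations across genes of -0.22, 0.08 and -0.07 for replicates 1, 2 and 3, so the numbers were not taken to pair libraries. A fit with the replicate block called 2122 genes towards SFL and 1634 towards CFL, and in it dspa was not called (limma adjusted p = 0.0583). The other counts for all genes, other keratins, other filament genes, anchors, regulators and keratin-binding genes stayed within 1.5 times under each setting run. Counts of the cell type markers were not rerun under these settings. Depth is unknown from TPM, which limits statements on genes under 1 TPM most.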

Other observations

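By the likeness measure, krt4 lay further from the other expressed keratins than these lay from each other. The measure rests mainly on the size of the difference between the lines. The genes nearest to krt4 were looked up after its values had been seen. By the root mean square difference of centred log2(TPM + 1) profiles over the 6 libraries, the nearest genes with a symbol were rbp5 (0.43), rbp4 (0.54) and CPA1 (0.58). rbp4, the retinol carrier of blood plasma, gave 0.26, 0.38 and 0.20 TPM in the CFL libraries against 48.6, 110 and 68.9 TPM in those of SFL. Like krt4 it was lowest in SFL replicate 1 and highest in SFL replicate 2. Nothing is read from this shared order, since rbp4 was picked for nearness over these same libraries. rbp5, a cellular retinol binding protein gene, had the same order in SFL, at 66.0, 136 and 112 TPM, beside 3.23, 0.80 and 1.25 TPM in CFL. CPA1, named after the pancreatic carboxypeptidase A1, read 7.95, 6.16 and 5.28 TPM across CFL, whereas SFL gave 379, 541 and 569 TPM. krt8, at a difference of 1.66, ranked 432 in nearness to krt4 among the 18489 tested genes.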
